A study of Homo sapiens with 15 samples.

Results

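The genes of the constitutive proteasome were followed across 5 treatment groups of A549 cells, an epithelial line from a human lung adenocarcinoma, by RNA sequencing. Members were the genes whose symbols begin with PSMA, PSMB, PSMC, PSMD, PSME, PSMF or PSMG followed by a number, without the interferon-inducible immunoproteasome genes PSMB8, PSMB9, PSMB10, PSME1 and PSME2, and with at least 50 counts over the 15 libraries. Of 48 symbols that match, 5 were removed as immunoproteasome genes and 2 by the count limit, which left 41 of the 26475 genes in the table. The 2 left out for low counts were PSMA8, a testis-type alpha subunit, and PSMB11, a thymus-type beta subunit. Each had 0 counts in every library, whereas the member nearest to the limit, PSMG4, had 645 counts in all. All 41 members passed the filter on low counts, so every member was tested.

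Each group had 3 libraries. The first group was untreated, and the other groups all received 10 ng/ml of the type 2 cytokine interleukin-4 (IL4). Of these, the first had IL4 alone, the second also had a substance that the labels call Compound A, the third had a non-targeting control siRNA pool, and the fourth had an siRNA pool against ALOX15 at 1 uM. ALOX15 encodes arachidonate 15-lipoxygenase, which oxygenates polyunsaturated fatty acids. Treatment lasted 48 h. Neither the dose nor the nature of Compound A is stated in the labels, and its group had no vehicle group of its own. The labels do not say that replicates came from different cultures, so the spread that enters the p-values is that between these samples and may be technical.

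The proteasome is the main machine by which cells degrade proteins tagged with ubiquitin. Its 20S core is a barrel in which outer rings of alpha subunits (PSMA genes) gate the entry to inner rings of beta subunits (PSMB genes), where PSMB5, PSMB6 and PSMB7 carry the catalytic sites. A 19S cap of ATPases (PSMC genes) and non-ATPase subunits (PSMD genes) binds ubiquitin chains, removes them and unfolds the substrate. PSME3 and PSME4 encode alternative caps, PSMF1 an inhibitor, and PSMG1 to PSMG4 chaperones that help to build the core. Under interferon signalling cells can exchange the catalytic beta subunits for the immunoproteasome forms, which is why those genes are set apart here.

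Library totals ran from 6407936 to 11031246 estimated counts, with a median of 7442934. The knockdown target ALOX15 was raised by IL4 (log2 change 5.36). It was lower with its siRNA than with control siRNA (edgeR, log2 change -3.85, adjusted p = 8.5e-05). In counts per 1000000 counts (CPM), ALOX15 had 6.00, 4.72 and 5.09 with IL4 alone and 0.136, 0.314 and 0.319 with its siRNA. It also had lower values than with IL4 alone in the other groups given IL4, at 2.59, 2.23 and 1.81 CPM with Compound A and 3.91, 3.56 and 3.25 CPM with control siRNA. All 6 epithelial marker genes were measured. Their summed level was 6344 to 7168 CPM untreated, 9794 to 12070 with IL4 and 8592 to 9378 with Compound A, and lay from 9433 to 10250 in the siRNA groups. Most of this sum was KRT8 and KRT18, and the 6 did not move together. With IL4 against untreated 3 were called higher and 1, EPCAM, lower. EPCAM had 13.0, 14.1 and 14.5 CPM untreated and 10.8, 7.73 and 10.2 CPM with IL4 (log2 change -0.53). The labels call the line alveolar type II like. Of 10 markers of that cell type, SFTPA1, SFTPA2, SFTPB, SFTPC, SLC34A2 and NKX2-1 had under 15 counts over all 15 libraries. High enough to test were 2, of which 1 was called higher with IL4 against untreated. ABCA3 had 37.9, 37.4 and 35.9 CPM untreated and 71.8, 55.2 and 55.6 CPM with IL4. LAMP3 had 1.34, 1.65 and 2.99 CPM untreated and 2.59, 2.62 and 3.79 CPM with IL4. Of 16 markers of other cell types 6 were high enough to test. Their summed level was 69.4 to 79.2 CPM in untreated libraries, 99.3 to 134.5 with IL4, 71.8 to 83.5 with Compound A, 87.0 to 103.0 with control siRNA and 101.4 to 108.9 with ALOX15 siRNA. Among them PTPRC, CD3E, CDH5, DCN, DES and HBB had under 15 counts, and the part of the epithelial and other markers in the results was not tested. IL4 replicate 1 stood apart. Its log2 level rose by 0.29 for every 10 percentage points of transcript GC content, against -0.10 to 0.09 in the other 14 libraries, and counts without it and after a correction for GC content are given below.

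Upstream stretches of the 4 members with the largest changes among those that passed a test below (log2 change beyond 0.30 in size) are shown, with that of PSMC4, which was called in both IL4 comparisons. They are the bases before the first annotated exon, from the RefSeq promoter windows of GRCh38.p14, 5′ to 3′ on the gene's strand. Capitals mark the motifs searched on both strands, of which 2 kinds were found in these stretches: the core of the antioxidant response element, TGACNNNGC, which NRF family factors such as NFE2L1 are known to bind, and the CCAAT box, which NF-Y binds. PSMB3 (chr17:38752491-38752735, plus strand), PSMD3 (chr17:39980557-39980796, plus strand) and PSMD12 (chr17:67366628-67366827, minus strand) each hold TGACNNNGC. PSMA6 (chr14:35292067-35292316, plus strand) holds none of the motifs searched. Its stretch lies inside the annotated gene, whose first base is chr14:35278633, before the exon of a later start. PSMC4 (chr19:39970915-39971004, plus strand) holds none of them either.
PSMB3: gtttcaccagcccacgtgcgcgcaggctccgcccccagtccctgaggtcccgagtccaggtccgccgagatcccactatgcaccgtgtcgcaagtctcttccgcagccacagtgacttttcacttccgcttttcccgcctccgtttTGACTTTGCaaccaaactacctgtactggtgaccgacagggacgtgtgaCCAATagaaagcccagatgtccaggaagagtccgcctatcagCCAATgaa
PSMD3: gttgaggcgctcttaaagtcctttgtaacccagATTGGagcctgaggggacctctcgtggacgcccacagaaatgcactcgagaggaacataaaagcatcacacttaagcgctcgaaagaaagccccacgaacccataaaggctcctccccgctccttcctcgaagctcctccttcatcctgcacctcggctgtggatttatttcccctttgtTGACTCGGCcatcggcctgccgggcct
PSMD12: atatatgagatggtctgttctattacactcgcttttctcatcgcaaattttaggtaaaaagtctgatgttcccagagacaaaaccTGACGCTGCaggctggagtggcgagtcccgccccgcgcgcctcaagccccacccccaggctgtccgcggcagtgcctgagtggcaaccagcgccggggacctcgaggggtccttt
PSMA6: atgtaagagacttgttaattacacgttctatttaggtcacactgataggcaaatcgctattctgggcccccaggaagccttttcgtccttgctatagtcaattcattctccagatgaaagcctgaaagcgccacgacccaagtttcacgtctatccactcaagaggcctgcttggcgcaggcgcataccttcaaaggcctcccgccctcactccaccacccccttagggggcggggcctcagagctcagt
PSMC4: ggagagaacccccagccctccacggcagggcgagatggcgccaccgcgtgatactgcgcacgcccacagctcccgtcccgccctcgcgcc
Of the 41 members, 35 had promoter entries. In the 250 bases before the start, TGACNNNGC or its reverse complement was found in 10 of these 35 genes (28.6%), against 13.2% of 27305 genes. The 10 were PSMA4, PSMB3, PSMC5, PSMD3, PSMD5, PSMD9, PSMD12, PSME4, PSMG1 and PSMG2. CCAAT was found in 17 of 35 (48.6%) against 37% of all genes, and the ETS core CCGGAAG in 10 of 35 (28.6%) against 10.2%. A match describes the letters only.

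In untreated cells the core and cap subunits were not at 1 level. Per kilobase of transcript, the highest member was PSMC4, an ATPase of the cap, at 232 ± 9.33 CPM per kb (SD, n = 3). PSMA4 followed at 213 ± 8.28, and then PSMA6, both alpha ring subunits, the latter at 199 CPM per kb. The gap between PSMC4 and PSMA4 was close to the sum of their SDs. Median levels per kb were 127 for the 7 alpha genes, 117 for the 7 beta genes, 69.1 for the 6 ATPases and 74.3 for the 14 non-ATPase genes. The 34 subunits of the core and cap spanned 12.6-fold from PSMD9 at 18.5 CPM per kb to PSMC4. PSMD9, like PSMD5 and PSMD10, is known as a chaperone of cap assembly more than as a subunit of the finished cap. The 4 core chaperones were low as a class, with a median of 23.9 CPM per kb and PSMG4 at 6.88. PSME3, PSMF1 and PSME4 had 81.3, 49.1 and 35.9 CPM per kb. Transcript length was the median over annotated transcripts, so levels of genes with mixed isoforms, such as PSMA5 and PSMB2, depend on that choice.

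**Figure D1:**
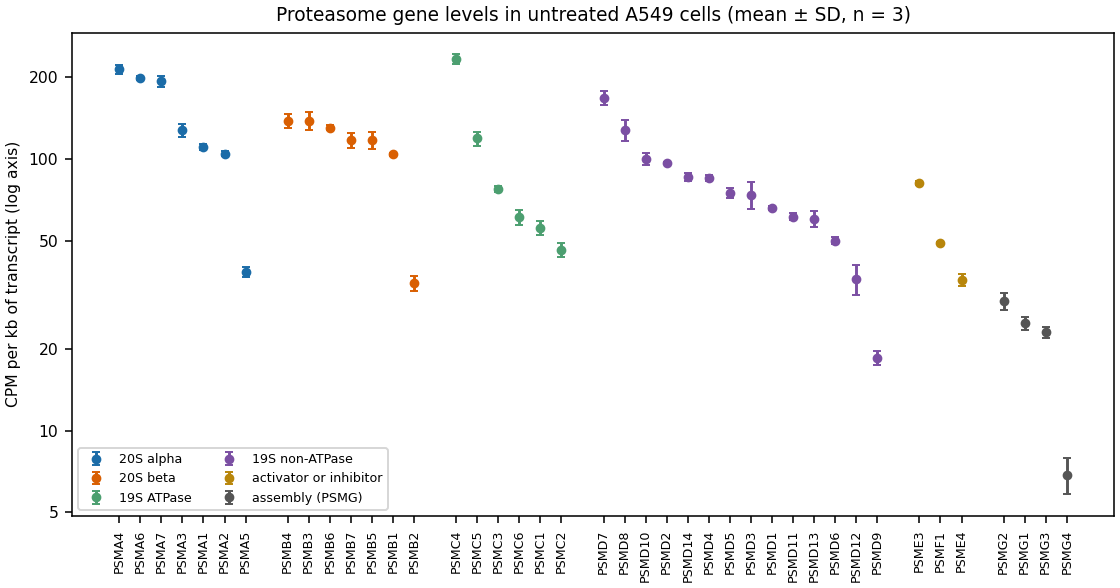
Level of each of the 41 proteasome genes in untreated A549 cells, in CPM per kb of transcript on a log axis, as the mean and SD of 3 libraries, coloured by role. Alpha and beta genes sit mostly above 100 CPM per kb, and the PSMG assembly chaperones at 29.9 or lower.

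The summed level of the 41 genes was lower in every IL4-treated library than in every untreated library. Together the members had 5637, 5651 and 5625 CPM in untreated replicates 1, 2 and 3. With IL4 alone they had 5227, 5233 and 5247 CPM. The IL4 libraries were tightly grouped and lay 7.13% below the untreated mean. With Compound A the sums were 5099, 5089 and 5086 CPM, below all libraries with IL4 alone or control siRNA. The sums were 5243, 5197 and 5152 CPM with control siRNA. ALOX15 siRNA libraries had 5291, 5191 and 5051 CPM. The ALOX15 siRNA libraries spread the most and overlapped those of every other IL4-treated group. Between 31 and 39 members were below the untreated mean in each of the 12 IL4-treated libraries. In the untreated libraries 18 to 21 were. These libraries themselves set that mean, so their counts are no independent contrast. The share of all genes below it is not reported here. In RNA from whole cultures, fewer cells that express a gene and less RNA per cell cannot be told apart.

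**Figure D2:**
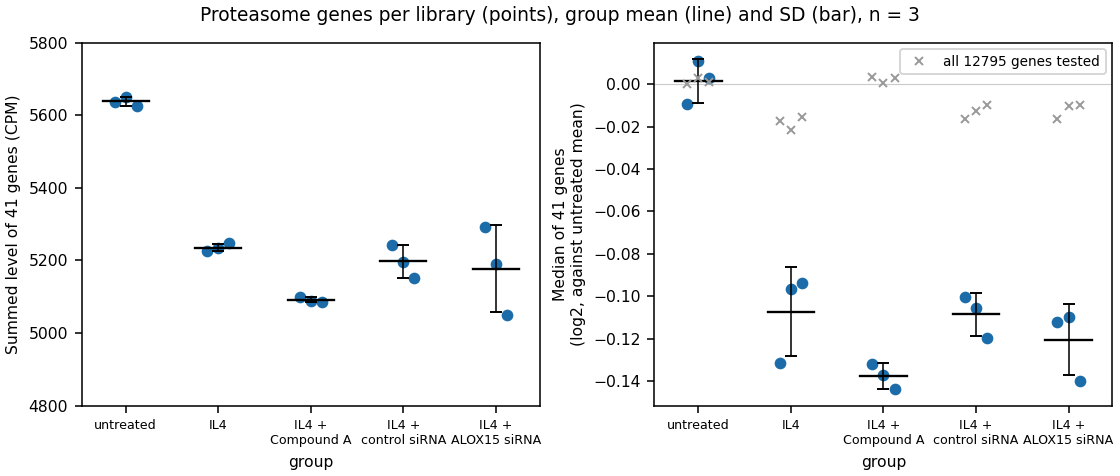
Left, summed level of the 41 genes in each library in CPM (the axis does not start at 0); right, the median over the 41 genes of the log2 level against the untreated mean, with the same median over all 12795 genes tested as crosses. Points are libraries, lines group means and bars SD of 3 libraries; the 12 IL4-treated libraries all lie below -0.09 on the right, whereas the crosses stay between -0.02 and 0.00.

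With IL4 alone 8 of the 41 genes fell and none rose (edgeR quasi-likelihood test, Benjamini-Hochberg adjusted p at most 0.05). This is 19.5% of the members, beside 11.6% of all 12795 genes called lower and 11.2% called higher. The 8 came from each role except the core chaperones: PSMA6 of the alpha ring, PSMB1 of the beta ring, PSMC4 and PSMC6 of the ATPases, PSMD11, PSMD12 and PSMD14 of the cap, and PSME4. The median change of the members was -0.10 on the log2 scale, or -6.76%, beside -0.02 for all genes tested. A negative change was found for 36 of 41 members (87.8%), beside 53.4% of all genes. The 3 IL4 libraries were all lower than the 3 untreated ones for 17 members (41.5%), beside 18% of all genes, and all higher for 1 member, PSMD9, beside 15.5%.

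Among the alpha genes, PSMA6 had 175.7, 176.2 and 181.6 CPM in the untreated libraries and 134.0, 145.4 and 151.6 with IL4. The groups did not overlap, and its log2 change was -0.31 (SE 0.06, adjusted p = 0.00085). All 7 alpha genes had negative changes, but the other 6 lay between -0.14 and -0.03 and did not pass; PSMA4, the most abundant of them per kb, was at -0.14 (adjusted p = 0.078).

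Among the beta genes, the non-catalytic subunit PSMB1 had 95.8, 97.8 and 95.8 CPM untreated and 83.1, 86.4 and 86.1 CPM with IL4. The 2 groups were apart by several times their spread (log2 change -0.18, SE 0.06, adjusted p = 0.030). The catalytic subunits did not pass in the reported fit. PSMB5, the chymotrypsin-like subunit, had 126.5, 109.9 and 117.5 CPM untreated and 116.1, 110.0 and 113.1 CPM with IL4, which overlap. Its log2 change was -0.06 with a 95% interval of -0.20 to 0.08. PSMB6, the caspase-like subunit, changed by -0.13 (interval -0.29 to 0.04), and PSMB7, the trypsin-like subunit, by -0.06 (interval -0.21 to 0.09).

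In the cap, the ATPase gene PSMC4 had 348.3, 346.8 and 324.0 CPM untreated and 307.1, 278.9 and 284.4 CPM with IL4, with no overlap. Its log2 change was -0.23 (SE 0.05, adjusted p = 0.0033). PSMD14 encodes the deubiquitinase that cuts ubiquitin chains from substrates. It had 160.6, 170.0 and 172.1 CPM untreated and 131.7, 143.9 and 143.4 CPM with IL4, again without overlap, and fell by 0.26 (SE 0.06, adjusted p = 0.0038). PSMD12, a scaffold subunit of the cap lid, had 107.6, 123.8 and 138.2 CPM untreated and 87.3, 100.8 and 108.4 CPM with IL4. Its groups overlapped, and its log2 change was -0.31 (SE 0.09, adjusted p = 0.016). PSMC6 and PSMD11 had smaller changes of -0.19 and -0.17. PSMC2, an ATPase of the same ring, was at 0.08 (adjusted p = 0.42).

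Of the other caps, PSME4, which encodes the activator PA200, had 241.8, 268.5 and 254.8 CPM untreated and 214.6, 226.9 and 226.4 CPM with IL4. All IL4 libraries were lower, and the log2 change was -0.20 (SE 0.05, adjusted p = 0.010). PSME3, the activator PA28 gamma of the nucleus, was at -0.07 (adjusted p = 0.31) and the inhibitor gene PSMF1 at 0.03 (adjusted p = 0.80). None of the 4 core chaperones passed.

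The 8 calls were not equally stable. PSMA6 passed in all 25 other settings tried and PSMC4 and PSMD14 in all but 1, whereas PSMC6 lost its call in 18, PSMB1 in 16 and PSMD11 in 14. With only the IL4 and untreated libraries in the fit, 1 member, PSMA6, was lower. The other calls therefore depended on fitting further groups in the same model. After a correction of each library for GC content, 13 members (31.7%) were lower and 1, PSMC2, higher (log2 change 0.21), beside 15.5% of all genes lower and 12.1% higher under the same correction. That correction kept 5 of the 8, while PSMC6 moved to -0.02, PSMD12 to -0.14 and PSME4 to -0.08, none of which passed. Among the 13 was the catalytic gene PSMB6 at -0.22 (adjusted p = 0.0033), which gained a call in 3 of the 25 settings. PSMB5 and PSMB7 gained a call in 0. Across the 41 members the IL4 change had a Spearman correlation of 0.35 with GC content, beside 0.37 for all genes, which come from the same libraries. Without IL4 replicate 1, 7 members were lower (17.1%, beside 10.9% of all genes); PSMB1, PSMC6 and PSMD11 were not among them. Only 3 were lower without untreated replicate 2 or without untreated replicate 3. When any 1 of IL4 replicate 2, Compound A replicates 1 to 3, control siRNA replicates 1 and 3, and ALOX15 siRNA replicates 2 and 3 was left out, 5 were lower. Shares of all genes beside these counts of 3 and 5 are not reported here. It therefore cannot be said whether the loss of calls was particular to the members.

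The group with IL4 and control siRNA gave a second reading against the same untreated libraries. Here 7 members fell (17.1%, beside 9.36% of all genes) and none rose, beside 9.93% of all genes. Their median change was -0.12 (-7.74%), beside -0.02 for all genes, and 37 of 41 changes were negative. The libraries were all lower for 19 members (46.3%), beside 19.7% of all genes. PSMA6 had 147.5, 150.0 and 149.7 CPM with control siRNA, all under the untreated range, and a log2 change of -0.25 (SE 0.06, adjusted p = 0.0049). PSMC4 had 296.7, 285.1 and 278.3 CPM and the same log2 change of -0.25 (SE 0.05, adjusted p = 0.0020). PSMA6, PSMB1, PSMC4, PSMD11 and PSMD14 were called in both comparisons, that is 5 of the 8 and 5 of the 7. In the second comparison PSMD11 lost its call in 18 of 25 other settings, PSMD14 in 14, PSMB3 in 12, PSMC3 in 7 and PSMB1 in 3. After the GC correction 15 members were lower in it (36.6%, beside 14.8% of all genes). They included the catalytic genes PSMB6 (-0.20) and PSMB7 (-0.17), which each gained a call in 2 of the 25 settings, and PSMB5 in 0. The 2 comparisons share their untreated libraries, so the second is not independent of the first. PSMC6, PSMD12 and PSME4, called with IL4 alone, were at -0.14, -0.22 and -0.12 with control siRNA and did not pass there, and their differences between the 2 groups (0.05, 0.10 and 0.08) did not pass either. PSMB3, a structural beta subunit, and PSMC3, an ATPase, passed in the second and not in the first, with log2 changes of -0.22 and -0.20 beside -0.11 and -0.16. Control siRNA differed from IL4 alone by -0.12 for PSMB3 and by -0.04 for PSMC3, which did not pass. The count of 7 varied with single libraries. It rose to 12 when IL4 replicate 1 was left out (29.3%, beside 13.6% of all genes). It was 2 without control siRNA replicate 3 or untreated replicate 2. It was 4 without IL4 replicate 2, untreated replicate 3, control siRNA replicate 1 or 2, Compound A replicate 2 or 3, or ALOX15 siRNA replicate 2 or 3. Shares of all genes beside the counts of 2 and 4 are not reported here. Whether those losses of calls were particular to the members therefore cannot be said.

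**Figure D3:**
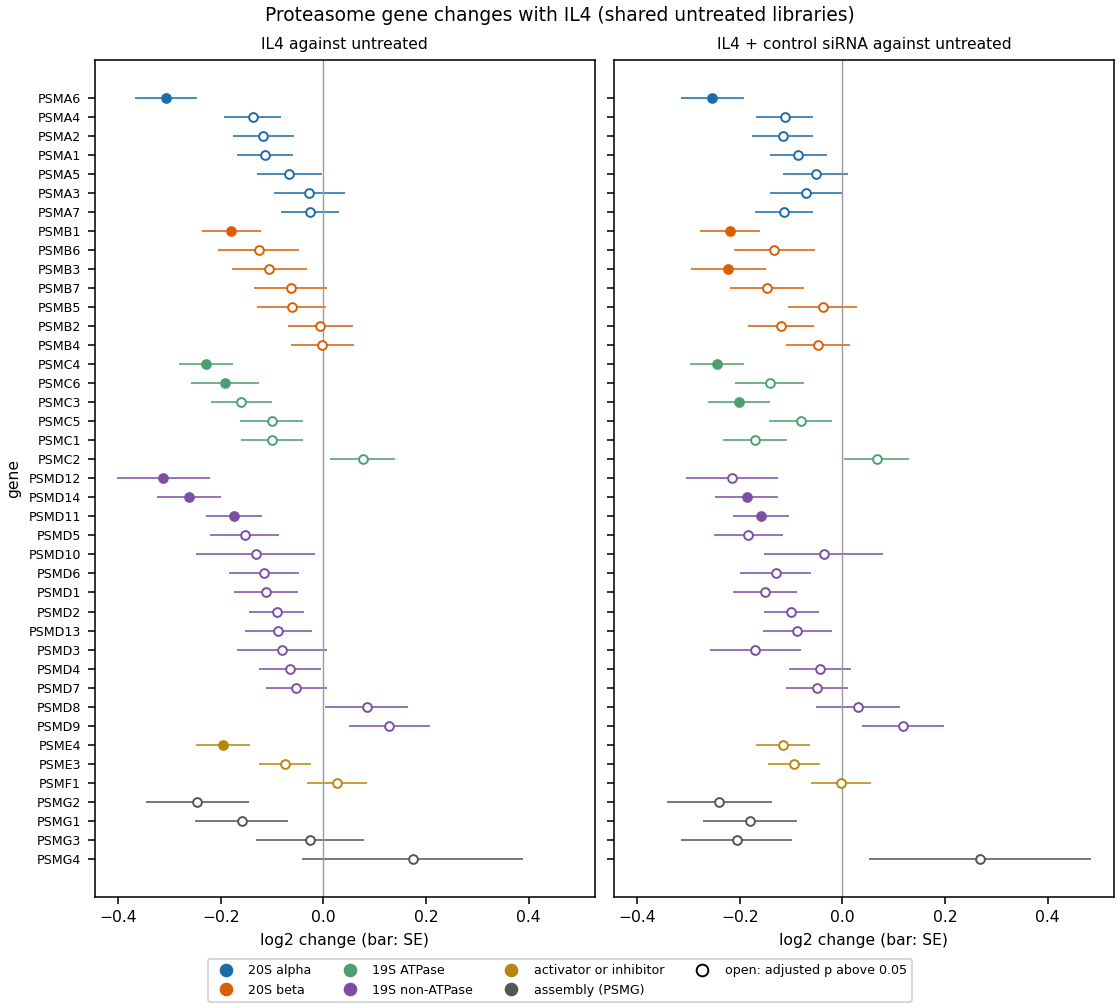
Log2 change of each of the 41 genes, with its SE, for IL4 against untreated (left) and for IL4 with control siRNA against the same untreated libraries (right); filled points passed the test at an adjusted p of 0.05. Most points lie left of 0 in both panels, with PSMC2, PSMD8, PSMD9 and PSMG4 to the right in both.

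The immunoproteasome genes left out of the module went the other way with IL4: 3 of 5 rose and none fell. PSMB8, the inducible counterpart of PSMB5, had 8.43, 9.15 and 7.77 CPM untreated and 17.9, 17.6 and 16.9 CPM with IL4. The groups were widely apart, with a log2 change of 1.04 (SE 0.12, adjusted p = 1.7e-06). PSME1 and PSME2, the subunits of the inducible activator PA28, rose by 0.55 and 0.40. PSMB9 and PSMB10 were at 0.75 (adjusted p = 0.11) and 0.50 (adjusted p = 0.070). The 5 genes together took 0.0122% of the counts in untreated libraries and 0.0178% with IL4, where the 41 members took 0.566% ± 0.0040 and 0.529% ± 0.0096 (SD, n = 3). With control siRNA the changes of PSMB8, PSME1 and PSME2 against untreated were 0.91, 0.50 and 0.42.

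The lists of genes that act around the proteasome differed in direction with IL4. None of 10 further proteasome parts, such as the ubiquitin receptor ADRM1 and the maturation factor POMP, passed with IL4, while 1 had an unadjusted p under 0.05. Yet 9 of these 10 changes were negative (90%), with a median of -0.09, beside 87.8% and -0.10 for the members. Of 15 genes known to regulate proteasome genes, STAT3 (0.38) and MAFF (0.39) rose and FOXO4 (-0.62) and NFYB (-0.34) fell. NFE2L1, the factor that raises proteasome genes when the proteasome is inhibited, was at 0.15 with IL4 (adjusted p = 0.067) and at 0.19 with control siRNA against untreated (adjusted p = 0.022). None of 15 ubiquitin and ubiquitin-conjugating genes fell by edgeR, 1 rose, and 4 had an unadjusted p under 0.05 in either direction. Of these 15 changes 12 were negative, with a median of -0.08. RAD23B, a shuttle that carries ubiquitylated proteins to the cap, fell by 0.21, and the other 15 shuttle and p97 genes did not pass. In that list of 16, 8 changes were negative and 8 positive. The CCT chaperonin, a folding machine for actin and tubulin, had 8 negative changes out of 8 genes with a median of -0.14, and CCT2, CCT3 and CCT4 fell (adjusted p = 0.032, 0.044 and 0.036). Those 3 calls were lost in 16, 18 and 18 of 25 other settings, and those of MAFF and RAD23B in 10 each.

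Compound A was compared with IL4 alone. With it 3 of the 41 members fell and none rose, that is 7.32% beside 8.07% of all genes called lower and 6.35% called higher, a share near the background. The median member change was -0.05, beside 0.00 for all genes, and 27 of 41 changes were negative. The libraries were all lower for 10 members (24.4%, beside 15.7% of all genes) and all higher for 4 (9.76%, beside 16.1%). The 4 were PSMA6, PSMC5, PSMD11 and PSMD14.

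PSMB3 had 102.9, 103.9 and 91.2 CPM with IL4 alone and 86.1, 76.0 and 76.1 CPM with Compound A. All libraries with Compound A were lower, with a log2 change of -0.32 (SE 0.07, adjusted p = 0.0070). PSMD3, a scaffold subunit of the cap lid, had 173.7, 143.7 and 134.5 CPM with IL4 alone and 116.7, 121.9 and 121.8 CPM with Compound A. Its IL4 libraries were widely spread, with replicate 1 far above the others, and the log2 change was -0.33 (SE 0.09, adjusted p = 0.019). PSMB2, another beta subunit, had 115.7, 119.7 and 124.3 CPM against 109.6, 101.7 and 102.7 CPM. The groups did not overlap (log2 change -0.20, SE 0.06, adjusted p = 0.047). The catalytic genes PSMB5, PSMB6 and PSMB7 were at -0.01, -0.01 and -0.06 and did not pass.

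Against control siRNA, the other IL4-treated reference, no member passed with Compound A by edgeR (3 had an unadjusted p under 0.05) or by DESeq2, beside 3.42% of all genes called lower and 1.86% higher. PSMB3 had 96.5, 91.1 and 87.1 CPM with control siRNA, just above its Compound A libraries, and a log2 change of -0.20 (adjusted p = 0.13). PSMD3 had 147.5, 142.9 and 134.0 CPM with control siRNA, again all higher, and a change of -0.24 (adjusted p = 0.14). PSMB2 was at -0.08, with overlapping libraries. Libraries were all lower with Compound A for 6 members (14.6%), beside 15.4% of all genes. The count of 3 against IL4 alone was 0 with only the groups compared, 1 without Compound A replicate 2 or 3, 6 with upper-quartile scaling and 8 (19.5%, beside 8.45% of all genes) after the GC correction. That correction moved PSMD3 to -0.18 (adjusted p = 0.024), and without IL4 replicate 1 PSMD3 was at -0.21 and did not pass (adjusted p = 0.064). PSMB2 lost its call in 11 of 25 other settings, PSMD3 in 5 and PSMB3 in 1.

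**Figure D4:**
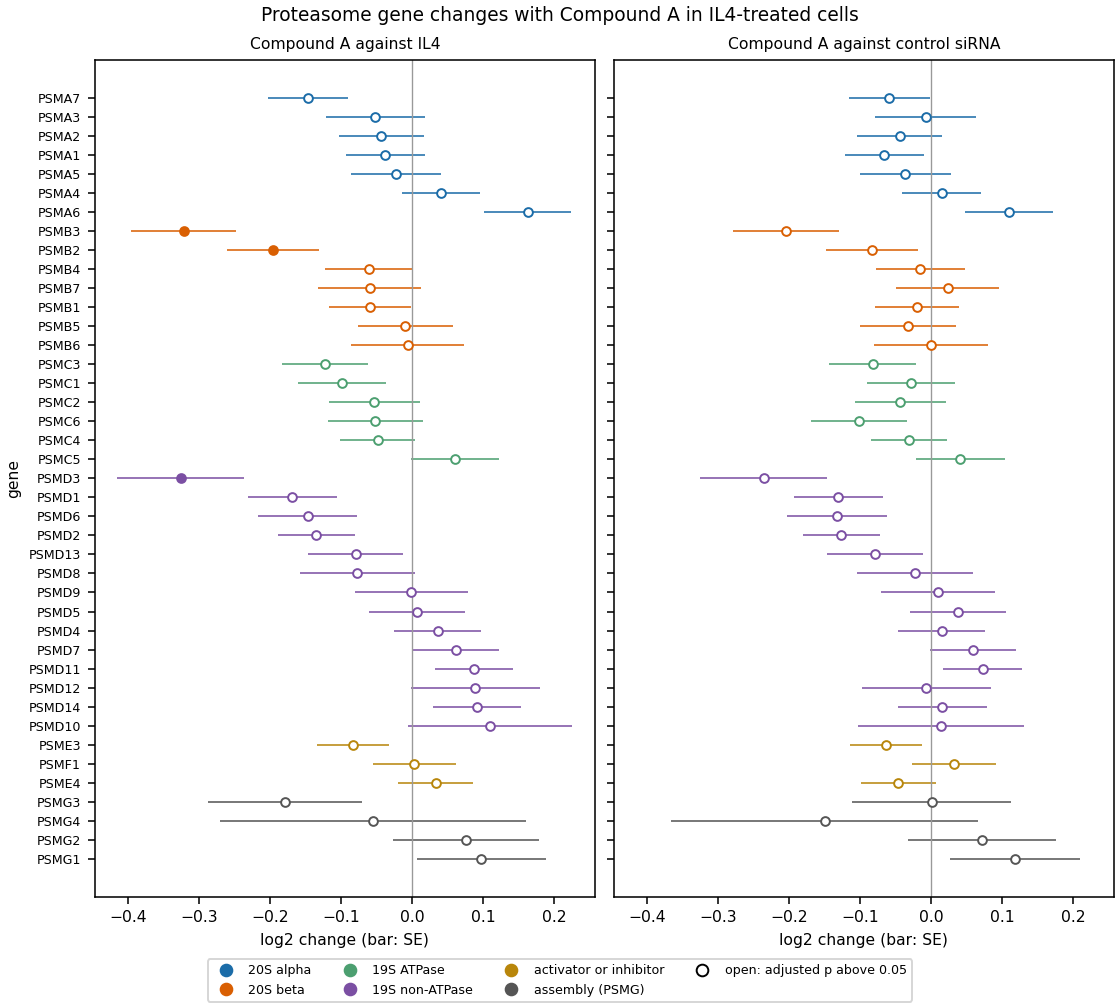
Log2 change of each of the 41 genes, with its SE, for Compound A with IL4 against IL4 alone (left) and against IL4 with control siRNA (right); filled points passed the test at an adjusted p of 0.05. PSMB3, PSMD3 and PSMB2 are the filled points on the left, and no point is filled on the right.

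Near the proteasome, UBB, which encodes ubiquitin, fell with Compound A against both references. It had 851.1, 764.2 and 770.8 CPM with IL4 alone and 669.3, 672.6 and 665.6 CPM with Compound A, a log2 change of -0.25 (adjusted p = 0.0045), and -0.22 against control siRNA (adjusted p = 0.022). The Compound A libraries lay close together and under every library of both references. VCP, the p97 ATPase that extracts ubiquitylated proteins, changed by -0.20 and -0.21. UBA1, the main ubiquitin-activating enzyme, and UBE2C, a conjugating enzyme of mitosis, fell against IL4 alone by 0.25 and 0.69. Of the CCT genes, TCP1 (-0.23) and CCT3 (-0.16) fell against IL4 alone, and CCT3 lost its call in 14 of 25 other settings. MAFF and MAFK, small MAF proteins that pair with NRF factors, rose by 0.54 and 0.46, and NFE2L1 was at 0.00. Of the immunoproteasome genes PSME1 changed by -0.20 (adjusted p = 0.049), a call lost in 15 of 25 other settings, and the other 4 did not pass. UBB had a count that was not whole in 1 library, as arises where reads are shared with near-identical genes.

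ALOX15 siRNA was compared with control siRNA, the comparison that isolates the knockdown. No member passed by edgeR or by DESeq2, and 1 member had an unadjusted p under 0.05, beside 0.383% of all genes called lower and 0.313% higher. Libraries were all lower for 3 members (7.32%) beside 9.18% of all genes, and all higher for 1 beside 9.47%. The median member change was -0.00, as for all genes. That member, PSMG4, had 6.66, 6.82 and 5.85 CPM with control siRNA and 4.49, 4.56 and 3.88 CPM with ALOX15 siRNA. Its groups did not overlap, and its log2 change was -0.58 with an adjusted p of 0.41. Its interval was wide, -1.07 to -0.10. PSMG1 had the highest change at 0.17 (adjusted p = 0.63). PSMA6 had 156.8, 136.7 and 146.1 CPM with ALOX15 siRNA, on both sides of the control siRNA libraries. The 95% interval lay within 0.25 of 0 on the log2 scale for 35 of 41 members, and within 0.5 for 40.

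Control siRNA was also compared with IL4 alone, as the check of the siRNA procedure. No member passed by edgeR or DESeq2 and none had an unadjusted p under 0.05 by edgeR, beside 0% of all genes called lower or higher. Libraries were all lower with control siRNA for 2 members (4.88%), beside 4.12% of all genes, and all higher for 1, beside 4.49%. The lowest adjusted p among the members was 0.90, and their median change was -0.01.

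The effect of Compound A (against IL4) was set against that of ALOX15 siRNA (against control siRNA) as a difference of 2 differences. Of 41 members 1 was lower and none was higher, 2.44% beside 3.2% of all genes lower and 1.94% higher. PSMB3 was the 1 member, with -0.32 for Compound A, 0.06 for ALOX15 siRNA and a difference of -0.38 (SE 0.11, adjusted p = 0.040). The call was lost in 9 of 25 other settings. PSMB2 and PSMD3 differed by -0.27 and -0.29, with adjusted p of 0.10 and 0.20.

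**Figure D5:**
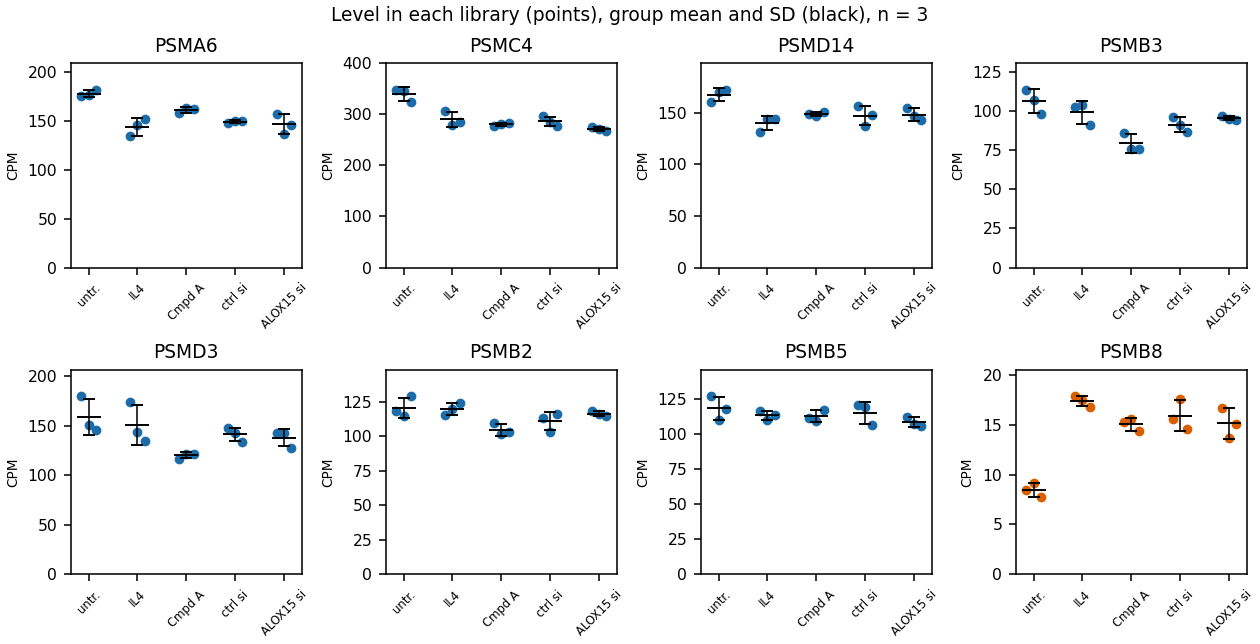
Level in CPM of 7 proteasome genes and of the immunoproteasome gene PSMB8 (orange) in each of the 15 libraries, with group mean and SD (n = 3) in black and axes from 0. PSMA6, PSMC4 and PSMD14 are highest untreated, PSMB3, PSMD3 and PSMB2 have their lowest mean with Compound A, PSMB5 overlaps between groups, and PSMB8 is higher in all IL4-treated libraries.

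Some members share exon bases with another gene, and the labels do not say whether the counting used strand. PSMC1 shares 82.2% of its exon bases with NRDE2 on the opposite strand, PSMC5 16.2% with FTSJ3, PSMG2 14.7% with CEP76 and PSMD13 10.4% with SIRT3, so that their values are uncertain. PSMD9 shares 15.7% with WDR66 on its own strand. PSMD4 was the only member with counts that were not whole, in all 15 libraries. None of these 6 was called in the reported fit, though after the GC correction PSMC5 and PSMD4 were lower with IL4 (-0.16 and -0.14) and PSMC1 with control siRNA against untreated (-0.17). Of those called in the reported fit, PSMA6 shares 63.9% with AL121594.1 on its own strand and PSMD11 8.39% with AC005899.8 on the opposite strand, neither of which was analysed here. Of those not called in that fit, PSMA2 shares 52.5% with AC010132.3 and PSMA1 35.7% with AC018523.2, each on its own strand. PSMD7 shares 42.4% with AC009120.2 on the opposite strand, and PSMD9 also shares 14.0% with AC069503.2 on its own. These overlapping genes were not analysed here either.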

How the data were processed

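RNA from 15 libraries of A549 cells was sequenced. The deposited table holds expected counts, the authors' RSEM estimates of reads per gene, unscaled. Per the submitters' processing notes, Bowtie2 2.1.0 and RSEM 1.2.15 were used with hg38. Annotation, read filters and strand use are not given in the sources used here.

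Counts were rounded, filtered with edgeR's filterByExpr (12795 genes kept), scaled by TMM and fitted in 1 model of all 5 groups with edgeR 4.0.16 (robust quasi-likelihood, R 4.3.3). Benjamini-Hochberg adjustment covered all tested genes, with a threshold of 0.05. The SE is the log2 change over the square root of F, and intervals are 95%. CPM are counts per 1000000 of the TMM-scaled library. Levels per kb used GENCODE v29 transcripts matched by symbol. Simulated data with changes planted in the IL4 group were used to check the code of the fit. The planted changes were all larger in size than the median member change. No GC trend was simulated, so this check does not cover the GC slope of IL4 replicate 1.

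The members, gene lists and tests were chosen with earlier results of these data known. The text names, per comparison, members that passed (up to 6 highest and 6 lowest), PSMB5, PSMB6, PSMB7, PSME3, PSME4, PSMF1, the 3 members highest per kb, the immunoproteasome genes, NFE2L1 and up to 4 called genes of each list. PSMC2, PSMG1, PSMD8, PSMD9, UBE2C, EPCAM, ABCA3, LAMP3, and those said to overlap other genes or to hold a motif, were named after values were seen.

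The alternatives were upper-quartile and RLE scaling, no filter, at least 1 CPM in 3 libraries, unrounded counts, DESeq2 1.42.0, only the groups compared, a loess correction for GC content (span 0.3), a replicate block, both together, and each library left out. Some genes of these lists are not reported here.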

Additional observations from a re-analysis of the deposited data

How the results depend on the processing

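Over 25 other settings, the values of the named genes kept their call, or its absence, in 3914 of 4248 cases, lost a call in 310, gained one in 24 and in no case reversed a called direction. Counts of members called lower, with IL4 against untreated, were 13 after the GC correction (with 1 higher) and the same with the block added, 5 with no filter and 1 with only the groups compared. With Compound A against IL4 they were 8 after the GC correction, 9 with the block added, 6 with upper-quartile scaling and 0 with only the groups compared. With control siRNA against untreated they were 15 after the GC correction and the same with the block added, 4 by DESeq2 and 3 with no filter. With Compound A against control siRNA they were 2 after the GC correction with the block and 2 with only the groups compared. The difference of Compound A and ALOX15 siRNA effects gave 3 after the GC correction (7.32%, beside 5.26% of all genes), and 3 with the block added. For the other counts in this paragraph, shares of all genes are given above only for the GC correction without the block. The cause was not tested. Median member changes that moved by more than 0.0139, the spread between replicates, were -0.0803 (IL4, only the groups compared), -0.0750 (IL4, upper-quartile scaling), -0.0822 (Compound A against IL4, upper-quartile scaling), -0.1021 (control siRNA against untreated, only the groups compared) and -0.0863 (the difference, upper-quartile scaling). For control siRNA against IL4 they were -0.0310 after the GC correction, -0.0316 with the block added and -0.0332 with upper-quartile scaling.

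With each library left out in turn, members lower ranged from 3 to 8 with IL4 (median -0.1076 to -0.0746), from 1 to 3 with Compound A against IL4 (0 to 1 higher, median -0.0534 to -0.0239), from 2 to 12 with control siRNA against untreated (median -0.1173 to -0.0929), from 0 to 2 with Compound A against control siRNA (median -0.0377 to -0.0162) and from 0 to 2 for the difference (median -0.0719 to -0.0228). ALOX15 siRNA against control siRNA and control siRNA against IL4 gave 0 calls throughout, with medians of -0.0133 to 0.0176 and -0.0350 to -0.0059. Of these fits, shares of all genes are given above only for the fit without IL4 replicate 1.

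Same-numbered replicates did not deviate together in every pair of any comparison at a correlation limit of 0.1, so the numbers were not taken to pair the libraries. For IL4 and untreated the correlations were 0.286, 0.0769 and 0.110 for the same number, and -0.23 to 0.135 for different numbers. A pairing of these 2 groups is therefore not excluded. With a replicate block 8 members were lower with IL4, 3 with Compound A against IL4, 9 with control siRNA against untreated, 1 with Compound A against control siRNA and 1 for the difference. At these depths intervals of a member's change had a median half-width of 0.13 on the log2 scale, and smaller changes were mostly not detectable.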
